A study of Mus musculus with 32 samples.

Results

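The genes described here encode the proteasome, the barrel-shaped protease that degrades ubiquitin-tagged proteins, together with its regulators and assembly factors. Members were all genes whose name on the array matched Psm followed by a letter from a to g and a digit, and each gene was read through its brightest probe. The pattern matched 49 of the 24082 genes with a symbol, and 47 of them passed the filter on dim probes and stood among the 16035 genes tested. The genes that did not pass were Psma8, a testis form of an alpha subunit that was well above background on 9 of 32 arrays, and Psmb11, a thymus form of a beta subunit that was well above background on 3 of 32. The 47 retained genes comprised 5 interferon-inducible genes (Psmb8, Psmb9, Psmb10, Psme1 and Psme2), 31 constitutive subunits, 10 activators, inhibitors or assembly chaperones, and Psmc3ip, a recombination factor that matches the pattern by its letters alone.

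The samples were bone marrow-derived macrophages (BMDMs), which are primary macrophages grown from marrow cells with M-CSF, from C57BL/6 wild-type (WT) or Ifnar1-/- mice, the latter without a chain of the receptor for type I interferons in any cell. Each genotype was left untreated or was exposed for 6 h to LPS (100 ng/mL per the labels), a ligand of TLR4, to IFNβ (1000 U/mL per the labels), to the pan-caspase inhibitor zVAD alone, to LPS or IFNβ with zVAD, or to LPS or IFNβ with zVAD and the RipK1 inhibitor Nec-1. The sources of the study differ on the doses of LPS and IFNβ. These 16 groups held 2 samples each, and every sample was hybridised to its own 1-colour array, 32 arrays in all. Each of the 4 slides carried the arrays of 1 genotype and 1 replicate number, so that genotype and slide cannot be told apart for levels, whereas a change within a genotype could be read within a slide. The labels do not say whether the 2 samples of a group came from separate mice or cultures, and p-values therefore measure the spread between these samples, which may be technical.

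The core particle of the proteasome, the 20S barrel, is built of rings of alpha subunits (Psma genes) around rings of beta subunits (Psmb genes), and only Psmb5, Psmb6 and Psmb7 encode beta subunits that cut peptide bonds. Interferons induce alternative catalytic subunits encoded by Psmb8, Psmb9 and Psmb10, which take the places of Psmb5, Psmb6 and Psmb7 in newly assembled particles to form the immunoproteasome, and also the PA28 activator subunits encoded by Psme1 and Psme2. The 19S cap, made of ATPases (Psmc genes) and non-ATPase subunits (Psmd genes), binds and unfolds ubiquitinated substrates. In macrophages the immunoproteasome is known for producing peptides that fit MHC class I molecules.

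Promoters of 4 members are shown. They carry the letters by which interferon- or stress-responsive factors are usually recognised, or are shared with a gene that also rose with IFNβ and with LPS in WT cells. Each is the RefSeq window of the GRCm38.p6 assembly from 250 bases before to 50 bases after the transcript start, and 42 of the members, Psme2 included, had such a window. In the first 3 sequences capitals mark a motif, which is GAS (TTCNNNGAA) at 97 bases before the start for Psmb8 at chr17:34197945-34198244 (+ strand), the core of the ISRE (GAAANNGAA, here on the reverse strand) at 10 bases after it for Psme1 at chr14:55578244-55578543 (+ strand), and the antioxidant response element (ARE, TGACNNNGC) at 47 bases before it for Psmb5 at chr14:54617946-54618245 (- strand). In the last, Psmb9 at chr17:34187281-34187580 (- strand), capitals mark the 225 bases between its start and that of Tap1, a peptide transporter gene on the opposite strand.
Psmb8: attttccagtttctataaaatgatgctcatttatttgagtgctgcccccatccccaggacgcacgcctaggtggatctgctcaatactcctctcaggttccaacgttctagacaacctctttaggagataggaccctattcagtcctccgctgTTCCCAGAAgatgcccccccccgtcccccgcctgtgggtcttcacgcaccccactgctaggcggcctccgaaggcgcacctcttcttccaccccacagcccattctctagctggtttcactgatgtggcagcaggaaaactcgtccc
Psme1: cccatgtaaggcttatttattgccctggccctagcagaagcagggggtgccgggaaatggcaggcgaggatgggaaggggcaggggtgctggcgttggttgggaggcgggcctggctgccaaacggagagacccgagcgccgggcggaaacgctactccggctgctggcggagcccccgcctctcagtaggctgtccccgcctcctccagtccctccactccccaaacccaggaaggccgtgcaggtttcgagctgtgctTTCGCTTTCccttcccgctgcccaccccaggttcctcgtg
Psmb5: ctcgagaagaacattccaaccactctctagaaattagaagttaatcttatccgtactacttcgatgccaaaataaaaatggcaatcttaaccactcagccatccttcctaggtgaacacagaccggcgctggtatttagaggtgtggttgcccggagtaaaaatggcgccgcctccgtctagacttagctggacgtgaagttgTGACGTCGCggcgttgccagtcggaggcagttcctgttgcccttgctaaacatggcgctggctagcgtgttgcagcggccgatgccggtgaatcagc
Psmb9: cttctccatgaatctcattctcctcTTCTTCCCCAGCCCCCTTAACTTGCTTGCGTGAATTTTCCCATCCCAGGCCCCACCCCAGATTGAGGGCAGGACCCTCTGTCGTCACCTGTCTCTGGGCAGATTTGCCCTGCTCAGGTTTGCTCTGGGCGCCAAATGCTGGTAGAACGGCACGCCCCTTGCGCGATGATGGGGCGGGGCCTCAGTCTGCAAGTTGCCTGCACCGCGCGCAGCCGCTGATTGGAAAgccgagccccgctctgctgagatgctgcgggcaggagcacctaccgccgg

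The starts of Psmb9 and Tap1 lie 226 bases apart on chromosome 17, and Psmb8 and Tap2 follow in the same segment of the MHC region (Psmb9 at chr17:34182030-34187330, Tap1 at chr17:34187556-34197225, Psmb8 at chr17:34198195-34201454 and Tap2 at chr17:34204479-34216321). Psme1 and Psme2 are neighbours on chromosome 14 (chr14:55578494-55581527 and chr14:55587440-55591101), and Psmb10 lies on chromosome 8 (chr8:105935728-105938392). Searched on both strands, the ISRE core was in 8.56% of 32851 promoter windows and in 7 of the 42 members with a window. Of these 7, Psmb3, Psmb4, Psmc2 and Psmd4 are constitutive subunits, Psmd9 and Psmg4 are assembly chaperones, and only Psme1 is inducible. Besides Psmb8, the members with GAS were the constitutive subunit Psmd2 and the assembly chaperone Psmg1. GAS was in 8.3% of all windows and in 3 members, the ARE was in 12.4% and in 6 members, and a kappaB motif (GGANTTTCC) was in 1.25% and in 0 members. The ARE was also in the Psmb6 window, 9 bases before the start, and none of these letter patterns was in the windows of Psmb9, Psmb10 and Psme2. Such a match is a description of the letters in the window.

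Between 44.5% and 61.6% of probes were well above background on Ifnar1-/- arrays and between 54.9% and 78.0% on WT arrays, and no spot was saturated. Values are log2 intensities after quantile normalization, and the number of arrays limits their precision. Ifnar1 itself read 14.22 and 14.19 in untreated WT and 11.89 and 11.87 in untreated Ifnar1-/- cells, a log2 difference of −2.33 ± 0.66 (SE, limma adjusted p = 0.033), so its probe was lower but not at background in the Ifnar1-/- cells. Of 10 macrophage marker names looked for, 9 were found, all well above background on 32 of 32 arrays, among them Csf1r, the M-CSF receptor, at 17.7 to 18.5. The name not found, Adgre1, stands for the same gene as Emr1, which was found. The arrays of Ifnar1-/- cells with LPS+zVAD+Nec-1 stood apart as a pair from all other pairs, with a correlation over all genes of 0.947 against 0.973 to 0.991 elsewhere. The step that compares this pair is given without each of its arrays in turn, and other counts that moved without both arrays are given both ways.

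IFNβ raised all 5 inducible genes in WT BMDMs, and Psmb9, the interferon-inducible counterpart of Psmb6, changed most. Psmb9 read 13.85 and 14.19 in untreated WT cells and 16.28 and 16.54 with IFNβ, a log2 fold change of 2.40 ± 0.30 (SE), or 5.26-fold (limma adjusted p = 6.1e-06). Psmb10, the counterpart of Psmb7, rose from 16.15 and 16.12 to 17.85 and 17.89, by 1.74 ± 0.25 (adjusted p = 2.3e-05). Psmb8, the counterpart of Psmb5, rose from 14.46 and 14.84 to 16.41 and 16.34, by 1.73 ± 0.21 (adjusted p = 3.9e-06). In each of these genes both treated arrays lay above both untreated arrays. The PA28 subunits, which open the gate of the 20S barrel independently of ATP, rose less. Psme1 went from 14.81 and 14.60 to 16.14 and 16.21, a change of 1.47 ± 0.14 (adjusted p = 2.1e-07). The probe that reports Psme2 went from 16.44 and 16.31 to 17.48 and 17.64, a change of 1.19 ± 0.32 (adjusted p = 0.0064).

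Psme2 needs a word on its probe, because no probe on the array is named Psme2. The brightest of 3 probes named Psme2b, a Psme2-like gene on chromosome 11 (chr11:48945345-48946410), lists transcripts of Psme2 as well, as does the next brightest, and the pair cannot tell the genes apart. These values are therefore given as Psme2/Psme2b. Psmb9 also has a second, dimmer probe, well above background on 16 of 32 arrays, all of them WT. It passed the filter through the WT arrays alone, and its Ifnar1-/- readings enter the alternative that averages all probes. In WT cells it gave smaller changes, of 1.74 with IFNβ, 0.83 with LPS, −0.50 with zVAD added to LPS and 0.29 with Nec-1 added to LPS+zVAD.

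**Figure D1:**
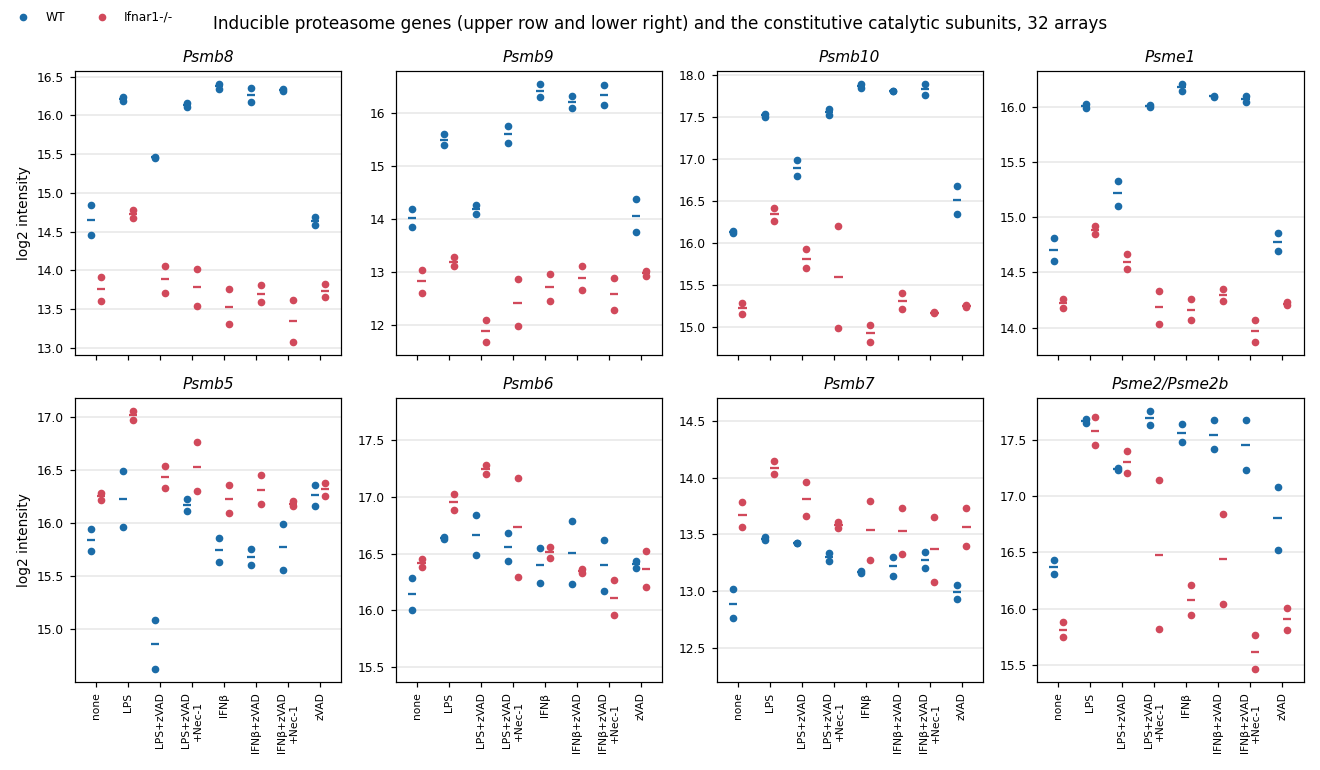
Log2 intensity (y axis) of the 5 inducible genes and of the constitutive catalytic subunits Psmb5, Psmb6 and Psmb7 in the 8 treatments (x axis), with WT arrays in blue, Ifnar1-/- arrays in red and a short line at the mean of the 2 arrays. With IFNβ the WT arrays of Psmb9 lie at 16.28 and 16.54 and the Ifnar1-/- arrays at 12.46 and 12.96, whereas the genotypes overlap for Psmb6.

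The constitutive catalytic subunits did not share this rise. With IFNβ in WT cells Psmb5 read 15.63 and 15.85 against 15.94 and 15.74 untreated, a change of −0.10 (95% confidence interval −0.54 to 0.35). Psmb6 changed by 0.25 (−0.27 to 0.77) and Psmb7 by 0.28 (−0.15 to 0.71). None of the 3 passed the test (adjusted p = 0.78, 0.49 and 0.33). Taken within a slide, the change of Psmb8 exceeded that of Psmb5 by 2.26 on the slide of replicate 1 and by 1.39 on that of replicate 2. The same difference was 2.48 and 1.81 for Psmb9 over Psmb6, and 1.55 and 1.37 for Psmb10 over Psmb7. Each inducible subunit thus gained on its counterpart on both slides, and more so on the slide of replicate 1.

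Across the whole complex, 14 of the 47 genes rose and 5 fell with IFNβ in WT cells, where 13.7% of all 16035 genes tested rose and 21.6% fell. Apart from the 5 inducible genes, 6 of 31 constitutive subunits rose and 3 fell, with a median change of −0.01 beside −0.17 over all genes. The median over the 5 inducible genes was 1.73, and 4 of them changed by more than any constitutive subunit (Psme2/Psme2b being the exception), the highest of which was the alpha subunit Psma4 at 1.24. With each array shifted to a common 75th percentile instead, which moved the median of all genes from −0.17 to −0.02, 15 members rose and 2 fell. The shift left 4722 of all 16035 genes called in either direction, beside 5662 without it.

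The constitutive genes that rose with IFNβ were mostly those of the alpha ring, which gates the barrel. Of its 7 genes 4 rose, namely Psma4 by 1.24 ± 0.18 (13.70 and 13.36 untreated, 14.69 and 14.85 treated), Psma5 by 1.17 ± 0.16, Psma3 by 1.06 ± 0.20 and Psma2 by 0.65 ± 0.21. Of 4 structural beta subunits Psmb2 rose, by 0.97 ± 0.20. The 19S ATPases gave no gene that rose, and Psmc1 and Psmc6 fell, by 0.60 and by 0.44. Among the 11 non-ATPase subunits Psmd8 rose by 0.68 and Psmd1, the large scaffold of the 19S base, fell by 1.34 ± 0.17 (adjusted p = 8.7e-06). Psmd1 read 14.90 and 14.66 untreated and 13.37 and 13.51 with IFNβ, without overlap.

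Of the 10 accessory genes 3 rose and 2 fell. Psme3, which encodes PA28 gamma, a nuclear relative of the PA28 subunits, rose by 1.98 ± 0.37 (adjusted p = 0.00035). Psme4, which encodes the activator PA200, rose by 1.10 ± 0.19, and Psmf1, which encodes the proteasome inhibitor PI31, by 0.93 ± 0.17. The 19S assembly chaperone Psmd5 fell by 0.99 ± 0.25 and the 20S assembly chaperone Psmg1 fell by 0.94 ± 0.25. Without the replicate 1 array of WT IFNβ the fall of Psmd5 was 0.82 and did not pass (adjusted p = 0.058).

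In Ifnar1-/- BMDMs IFNβ called 0 of the 47 genes, by limma's adjusted p and at an unadjusted p under 0.05 alike. Over all 16035 genes 0% were called by adjusted p, and 253 genes had an unadjusted p under 0.05. Psmb9 read 12.61 and 13.04 untreated and 12.46 and 12.96 with IFNβ, a change of −0.12 (95% interval −0.75 to 0.51). Psmb8 changed by −0.23 (−0.67 to 0.21), Psmb10 by −0.30 (−0.82 to 0.22), Psme1 by −0.06 (−0.35 to 0.24) and Psme2/Psme2b by 0.27 (−0.40 to 0.93). For Psmb8, Psmb9, Psmb10 and Psme1 these intervals ended below the changes seen in WT cells.

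The difference between the genotypes in the change with IFNβ was tested directly and passed for 13 members, 10 of them lower in Ifnar1-/- cells (8.54% of all genes) and 3 higher (10.3% of all genes). It was −2.51 ± 0.43 for Psmb9 (adjusted p = 0.00039), −2.04 ± 0.35 for Psmb10, −1.96 ± 0.29 for Psmb8 and −1.52 ± 0.20 for Psme1. For Psme2/Psme2b it was −0.92 ± 0.45 and did not pass (adjusted p = 0.17). The latter difference did pass with arrays shifted to a common 75th percentile (−1.51, adjusted p = 0.03), with its 3 probes averaged (−1.91) and in a fit of the compared arrays alone (adjusted p = 0.042). That average includes the third probe, which lists Psme2b alone and gave −3.15. The brightest probe gave −0.92 and the next brightest −1.64. The other genes with a lower change in Ifnar1-/- cells were Psme3 (−1.93), Psme4 (−1.35), Psma5 (−1.18), Psma4 (−0.93), Psmf1 (−0.93) and Psma3 (−0.91), and those with a higher change were Psmd1 (1.32), Psmd5 (1.03) and Psmc6 (0.67). With arrays shifted to a common 75th percentile the split was 13 lower and 0 higher, and the median difference over all genes moved from 0.16 to 0.01. The shift left 2497 of all genes called in either direction, beside 3014 without it. The count fell to 8 without the replicate 1 array of untreated Ifnar1-/- cells and likewise without the replicate 2 array of Ifnar1-/- IFNβ.

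**Figure D2:**
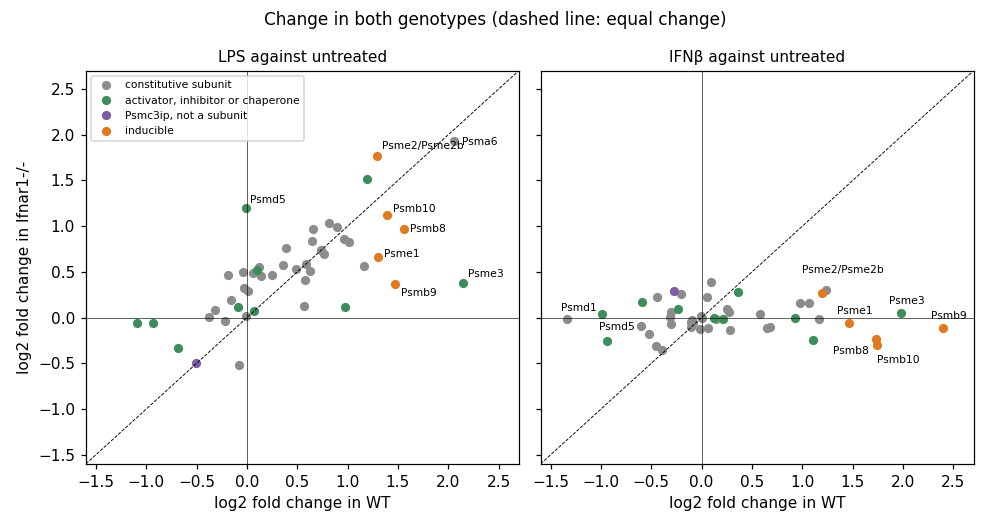
Log2 fold change against untreated cells in WT (x axis) and in Ifnar1-/- BMDMs (y axis) for the 47 retained genes, with LPS on the left and IFNβ on the right; orange points are the inducible genes and the dashed line marks equal change. With IFNβ the Ifnar1-/- changes stay near 0 (Psmb9 at −0.12 against 2.40 in WT), whereas with LPS Psma6 lies near the line at 1.93 against 2.06 and Psme3 far below it at 0.37 against 2.15.

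LPS also raised all 5 inducible genes in WT cells, together with further parts of the complex. Psmb8 rose to 16.23 and 16.19 from 14.46 and 14.84, by 1.56 ± 0.21 (limma adjusted p = 1.1e-05). Psmb9 rose to 15.40 and 15.59 from 13.85 and 14.19, by 1.47 ± 0.30 (adjusted p = 0.00065). Psmb10 rose to 17.54 and 17.51 from 16.15 and 16.12, by 1.39 ± 0.25 (adjusted p = 0.00018). Treated and untreated arrays did not overlap in any of them. Psme1 and Psme2/Psme2b rose by 1.30 ± 0.14 and 1.30 ± 0.32 (2.47-fold and 2.45-fold).

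In all, 22 of 47 members rose with LPS in WT cells and 4 fell, where 16.3% of all genes rose and 24.9% fell. The 31 constitutive subunits held 14 that rose and 1 that fell, with a median change of 0.38 beside −0.08 over all genes. Of the catalytic counterparts, Psmb7 rose by 0.57 ± 0.21 (adjusted p = 0.031), while Psmb5 changed by 0.38 (95% interval −0.06 to 0.83) and Psmb6 by 0.49 (−0.03 to 1.01). The gain of each inducible subunit over its counterpart was positive on both slides, at 1.75 and 0.60 for Psmb8 over Psmb5, 1.21 and 0.76 for Psmb9 over Psmb6, and 0.94 and 0.70 for Psmb10 over Psmb7. With arrays shifted to a common 75th percentile 29 members rose and 1 fell, Psmb5 passed the test (0.90, adjusted p = 0.016), and the fall of Psmb1 (−0.38 ± 0.14) turned to 0.16. The shift left 5952 of all genes called in either direction, beside 6604 without it. Without the replicate 2 array of untreated WT cells 17 members were called.

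The change of Psma6, an alpha subunit, was the highest of all constitutive subunits. It read 14.09 and 14.00 in untreated WT cells and 15.94 and 16.27 with LPS, a rise of 2.06 ± 0.25 or 4.17-fold (limma adjusted p = 5.1e-06). With IFNβ it read 13.85 and 14.08, so both arrays stood above the untreated ones with LPS and not with IFNβ. Of the other alpha genes Psma3 rose by 1.16 ± 0.20, Psma5 by 0.96, Psma4 by 0.76 and Psma2 by 0.63. In the 19S cap the highest changes were those of Psmc5 (0.82 ± 0.22) and of Psmd14, the deubiquitinase of the lid (1.01 ± 0.23), and 2 of 6 ATPases and 5 of 11 non-ATPase subunits rose. Among accessory genes Psmd10, a 19S assembly chaperone also known as gankyrin, rose by 1.19 ± 0.37. Of the 4 assembly chaperones of the 20S particle 3 fell, with Psmg2 falling by 1.09 ± 0.23, Psmg1 by 0.93 ± 0.25 and Psmg4 by 0.68 ± 0.15, and Psmg3 changed by 0.10 and did not pass.

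**Figure D3:**
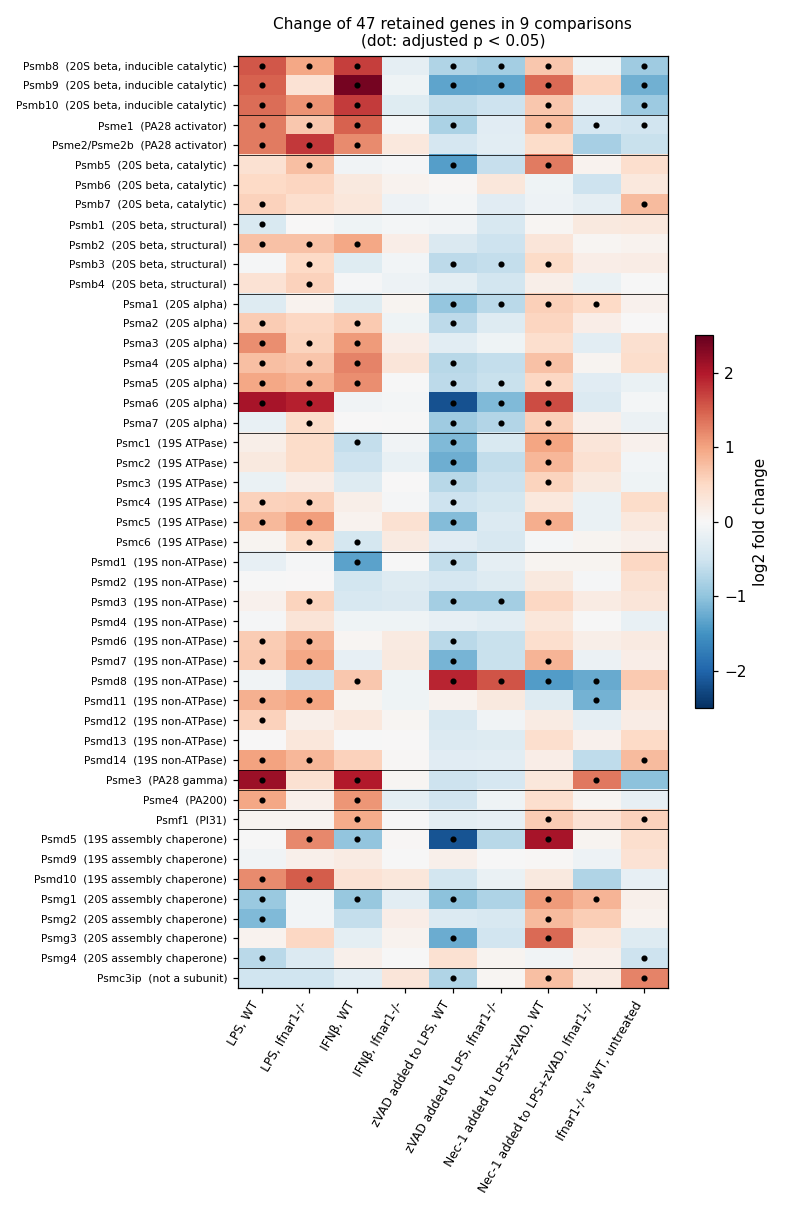
Log2 fold change (colour, red higher and blue lower) of the 47 retained genes (rows, grouped by their place in the complex) in 9 comparisons (columns), with a dot where the limma adjusted p was under 0.05. The column for IFNβ in Ifnar1-/- cells holds no dot, and the column for zVAD added to LPS in WT cells is mostly blue, with 24 genes lower and Psmd8 alone higher.

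In Ifnar1-/- cells LPS raised 23 of 47 members and lowered 0, where 10.9% of all genes rose and 13.9% fell. Of the 22 genes that rose in WT and the 23 that rose in Ifnar1-/- cells, 16 were shared, 72.7% of the first list and 69.6% of the second. Psma6 went from 13.85 and 14.15 to 15.90 and 15.97, a rise of 1.93 ± 0.25 (adjusted p = 6.5e-05), and the difference from WT was −0.13 (95% interval −0.88 to 0.63). Psmd10 rose by 1.52 ± 0.37, Psmc5 by 1.04 ± 0.22 and Psmd11 by 0.99 ± 0.19. The median over the 31 constitutive subunits was 0.51, with 17 rising.

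Of the 5 inducible genes 4 passed in these cells and Psmb9 did not, and differences among them were not tested. End levels are set beside WT arrays, which sat on other slides. Psme2/Psme2b rose from 15.75 and 15.88 to 17.45 and 17.70, by 1.77 ± 0.32 (adjusted p = 0.00056), to the levels of the WT LPS arrays at 17.65 and 17.69. Psmb10 rose by 1.12 ± 0.25, Psmb8 by 0.96 ± 0.21 and Psme1 by 0.67 ± 0.14, and each ended below both WT LPS arrays. Psmb8 ended at 14.67 and 14.78, within the range of the untreated WT arrays, Psmb10 at 16.26 and 16.42 and Psme1 at 14.92 and 14.85, just above theirs. Psmb9 read 12.61 and 13.04 untreated and 13.11 and 13.28 with LPS, a change of 0.37 ± 0.30 that did not pass (adjusted p = 0.45). Relative to their counterparts, Psmb8 changed by 0.31 and 0.10 more than Psmb5 on the 2 slides, Psmb9 by 0.00 and 0.33 less than Psmb6, and Psmb10 by 0.64 and 0.78 more than Psmb7. Psmb5 itself rose by 0.76 ± 0.21 (adjusted p = 0.012). The count of 23 fell to 12 and 15 without the replicate 2 and the replicate 1 array of untreated Ifnar1-/- cells, and to 13 without the replicate 2 array of Ifnar1-/- LPS.

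**Figure D4:**
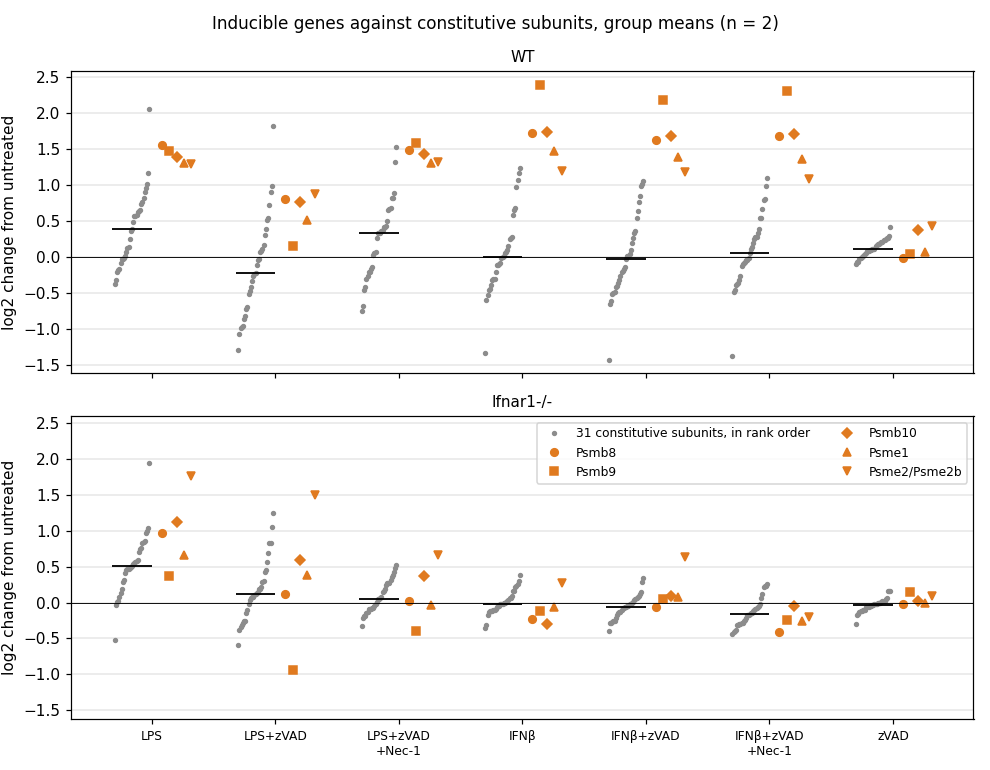
Log2 change of the group mean from the untreated cells of the same genotype (y axis) for 7 treatments (x axis), with the 31 constitutive subunits as grey points in rank order, their median as a black line, and the 5 inducible genes as orange symbols. In WT the inducible genes lie above the constitutive median in each treatment with LPS or IFNβ, and in Ifnar1-/- cells with LPS+zVAD they run from Psmb9 at −0.94, below it, to Psme2/Psme2b at 1.49.

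The genotype difference in the change with LPS passed for 2 members, Psme3 lower (3.6% of all genes) and Psmd5 higher (3.03% of all genes) in Ifnar1-/- cells. For the inducible genes it was −1.11 ± 0.43 in Psmb9 (adjusted p = 0.14), −0.64 ± 0.20 in Psme1 (adjusted p = 0.06), −0.60 ± 0.29 in Psmb8 (adjusted p = 0.28), −0.27 ± 0.35 in Psmb10 and 0.47 ± 0.45 in Psme2/Psme2b. With the slide as a replicate block 7 members passed, where 2700 of all 16035 genes did. Psmb9 (limma adjusted p = 0.047) and Psme1 (adjusted p = 0.017) were among the 7.

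Psme3 stood out among the accessory genes in its contrast between genotypes. In WT cells it read 14.68 and 15.48 untreated, 17.16 and 17.30 with LPS and 17.05 and 17.07 with IFNβ. The Ifnar1-/- arrays read 14.29 and 13.84 untreated, 14.57 and 14.30 with LPS and 14.35 and 13.86 with IFNβ. All WT arrays with LPS or IFNβ, with or without zVAD and Nec-1, lay between 16.43 and 17.30, above every Ifnar1-/- array, the nearest of which was the 16.41 of IFNβ+zVAD+Nec-1. The difference in change was −1.77 ± 0.52 for LPS (adjusted p = 0.046) and −1.93 ± 0.52 for IFNβ (adjusted p = 0.014). The LPS difference did not pass with 7 of the 8 arrays left out in turn, nor without the filter on dim probes or in a fit of the compared arrays alone (adjusted p from 0.062 to 0.20 over these runs), and the IFNβ difference did not pass without the replicate 1 array of untreated WT, the replicate 1 array of untreated Ifnar1-/- or the replicate 2 array of Ifnar1-/- IFNβ (adjusted p = 0.078, 0.067 and 0.066).

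The third probe named Psme2b lists transcripts of Psme2b alone, and it behaved unlike the pair that also list Psme2. It read 9.72 and 9.84 in untreated WT cells, 12.66 and 12.96 with IFNβ, and 10.90 and 10.18 with LPS. Among Ifnar1-/- arrays it read 9.71 and 9.43 untreated, 9.32 and 9.56 with IFNβ, but 5.38 and 5.41 with LPS and 5.22 and 4.94, below the background limit, with LPS+zVAD. On this probe LPS thus went with a drop of 4.17 on the log2 scale in Ifnar1-/- cells, where the brightest Psme2/Psme2b probe rose by 1.77 and the next brightest by 2.20. Averaging the 3 probes turned the Ifnar1-/- LPS change of Psme2/Psme2b to −0.07 and its genotype difference to −1.41, so the values above hold for the brightest probe.

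zVAD alone changed none of the 47 genes by limma's adjusted p or at an unadjusted p under 0.05, in WT (0.00624% of all genes called by adjusted p) or in Ifnar1-/- cells (0% called). An unadjusted p under 0.05 was found for 901 of all 16035 genes in WT and for 61 in Ifnar1-/- cells. Added to LPS in WT cells, which is the combination that drives macrophages toward necroptosis, zVAD lowered 24 members and raised 1, where 21.8% of all genes fell and 12.9% rose. Psma6 fell by 2.17 ± 0.25, from 15.94 and 16.27 with LPS to 14.16 and 13.72 (adjusted p = 3.9e-06), on either side of the untreated arrays at 14.09 and 14.00. Psmd5 fell by 2.16 ± 0.25, from 10.97 and 11.44 to 9.42 and 8.66 (adjusted p = 3.3e-06). Psmb5 fell by 1.37 ± 0.21, from 15.96 and 16.49 to 15.09 and 14.63, below both untreated arrays. In such bulk samples fewer cells of a type and less RNA per cell cannot be told apart.

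The falls were spread unevenly over the barrel and the cap. Of the 7 alpha genes 6 fell, and of the 6 ATPases 5 fell (Psmc2 by 1.23 ± 0.21 and Psmc1 by 1.10 ± 0.17 the most). Of the 11 non-ATPase subunits 4 fell, led by Psmd7 at −1.17 ± 0.17. The 31 constitutive subunits held 17 that fell, with a median of −0.61 beside −0.04 over all genes. Among the beta subunits Psmb5 fell as given above, whereas Psmb6 (0.03) and Psmb7 (−0.04) changed least among the catalytic subunits and did not pass. The gene that rose was Psmd8, a subunit of the 19S lid, from 14.28 and 13.73 with LPS to 15.74 and 16.07, by 1.90 ± 0.24 or 3.73-fold (adjusted p = 7.8e-06).

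Among the inducible genes zVAD added to LPS lowered Psmb9 by 1.32 ± 0.30 (adjusted p = 0.002), from 15.40 and 15.59 to 14.26 and 14.09, Psme1 by 0.79 ± 0.14 and Psmb8 by 0.75 ± 0.21. Psmb10 changed by −0.62 ± 0.25 (adjusted p = 0.058; 0.048 with the slide as a replicate block) and Psme2/Psme2b by −0.43 ± 0.32 (adjusted p = 0.34). With arrays shifted to a common 75th percentile, Psmb8 (−0.43, adjusted p = 0.25) and Psme1 (−0.50, adjusted p = 0.051) did not pass.

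In Ifnar1-/- cells zVAD added to LPS lowered 8 members and raised 1, where 3.67% of all genes fell and 4.58% rose. The fallen genes were 8 of the 24 that fell in WT (33.3% of the WT list and 100% of the Ifnar1-/- list), and the gene that rose was again Psmd8, from 14.09 and 14.35 to 15.71 and 15.88, by 1.57 ± 0.24 (adjusted p = 0.00039). Psmb9 fell by 1.31 ± 0.30, to 11.68 and 12.09, below both untreated Ifnar1-/- arrays, Psma6 by 1.11 ± 0.25 and Psmb8 by 0.84 ± 0.21. The difference between genotypes in this step passed for Psmd5 alone (1.47 ± 0.35, adjusted p = 0.025; 3.6% of all genes in either direction), which read 12.04 and 12.27 in Ifnar1-/- cells and 9.42 and 8.66 in WT. With the slide as a replicate block the Ifnar1-/- count was 21 and the count of genotype differences was 3, where 3125 and 2144 of all 16035 genes were called. Without the pair of arrays that stood apart the member counts were 17 and 3, where 1863 and 963 of all genes were called. The Ifnar1-/- count fell to 2, 3 and 1 without the replicate 1 or the replicate 2 array of LPS or the replicate 1 array of LPS+zVAD, and the difference of Psmd5 did not pass with 6 of 8 arrays left out in turn (adjusted p from 0.052 to 0.15).

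**Figure D5:**
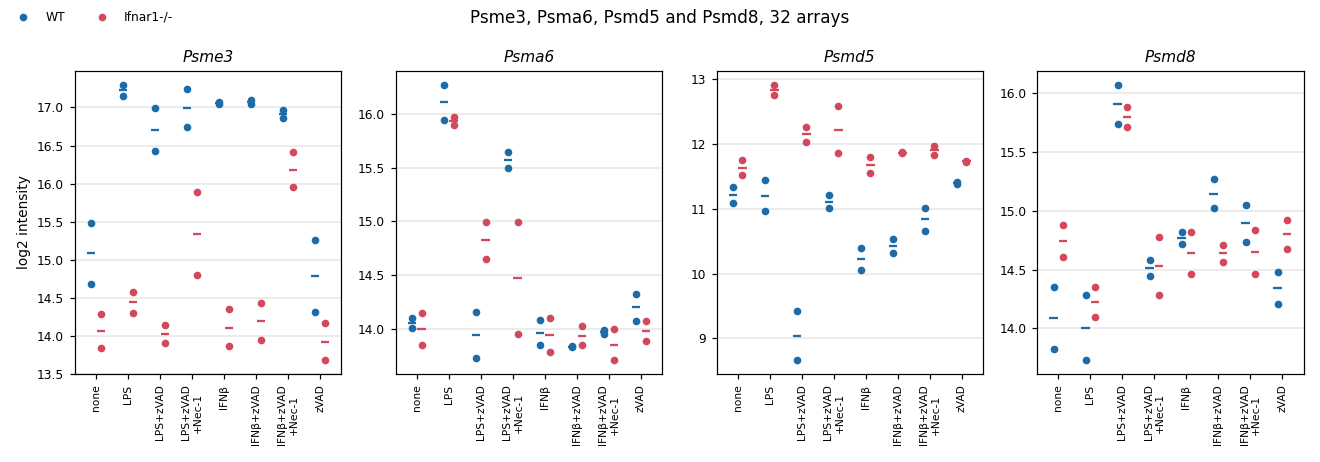
Log2 intensity (y axis) of Psme3, Psma6, Psmd5 and Psmd8 in the 8 treatments (x axis), with WT arrays in blue, Ifnar1-/- arrays in red and a short line at the mean of the 2 arrays. Psmd8 is highest with LPS+zVAD in both genotypes, at 15.74 and 16.07 in WT and 15.71 and 15.88 in Ifnar1-/-, and Psmd5 is lowest with LPS+zVAD in WT, at 9.42 and 8.66.

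Nec-1, which blocks the kinase RipK1, raised 22 members and lowered 1 when added to LPS+zVAD in WT cells, where 18.7% of all genes rose and 9.77% fell; this step and the one before share the LPS+zVAD arrays. Psmd5 rose by 2.07 ± 0.25 to 11.01 and 11.21, Psma6 by 1.63 ± 0.25 to 15.65 and 15.49, Psmg3, a 20S assembly chaperone, by 1.41 ± 0.24, and Psmb5 by 1.31 ± 0.21 to 16.11 and 16.22. Psmb9 rose by 1.42 ± 0.30 to 15.44 and 15.76, Psme1 by 0.79 ± 0.14, Psmb8 by 0.67 ± 0.21 and Psmb10 by 0.67 ± 0.25, while Psme2/Psme2b changed by 0.45 ± 0.32 and did not pass. Psmd8 fell by 1.39 ± 0.24 to 14.45 and 14.58. With arrays shifted to a common 75th percentile 13 members were called, 12 higher and 1 lower, and Psmb8 (0.28, adjusted p = 0.52), Psmb10 (0.26, adjusted p = 0.58) and Psme1 (0.42, adjusted p = 0.12) were not among them. The shift left 4111 of all genes called in either direction, beside 4563 without it. Without the replicate 2 array of WT LPS+zVAD 12 members were called.

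The same step in Ifnar1-/- cells rests on the pair of arrays that stood apart. It called 3 members higher, Psme3 (1.32 ± 0.37), Psmg1 (0.86) and the alpha subunit Psma1 (0.50), and 3 lower, Psmd8 (−1.26 ± 0.24), the lid subunit Psmd11 (−1.18) and Psme1 (−0.41), where 11.1% of all genes rose and 7.65% fell. The replicate 2 array read 15.82 for Psme2/Psme2b, 14.98 for Psmb10 and 13.95 for Psma6, at or near the untreated levels, and the replicate 1 array read 17.14, 16.21 and 15.00. Psmb9 did not share this. It read 11.97 on the replicate 2 array, below the untreated 12.61 and 13.04 and between the LPS+zVAD arrays at 11.68 and 12.09. On the replicate 1 array Psmb9 read 12.87. Whether the library labelled replicate 2 had the treatment of its label was not tested, and every value of this step carries that doubt. Isg15, a marker of the interferon response, moved with Psme2/Psme2b, Psmb10 and Psma6, at 16.81 on the replicate 1 and 12.86 on the replicate 2 array, and its part in the result was not tested. The count was 15 without the replicate 1 array, 4 without the replicate 2 array, 2 without either LPS+zVAD array, and 10 with the slide as a replicate block, which also called Psme2/Psme2b (−0.83, adjusted p = 0.047). Over all 16035 genes the slide block called 5614 in this step. With arrays shifted to a common 75th percentile 0 members were higher and 4 lower, where 2339 of all genes were called, beside 3014 without the shift.

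With IFNβ in place of LPS, adding zVAD called 0 of 47 members in WT (0% of all genes) and 0 in Ifnar1-/- cells (0.00624%), and 0 at an unadjusted p under 0.05 in either. Over all 16035 genes, 637 in WT and 370 in Ifnar1-/- cells had an unadjusted p under 0.05. Adding Nec-1 to IFNβ+zVAD called 0 in WT cells (0% of all genes), with 0 at an unadjusted p under 0.05, where 613 of all genes had one. WT Psmb9 stayed at 16.09 and 16.31 with IFNβ+zVAD and at 16.15 and 16.51 with Nec-1 added. In Ifnar1-/- cells Nec-1 added to IFNβ+zVAD called 1 member, Psme3 (1.58% of all genes in either direction), which rose from 14.43 and 13.94 to 16.41 and 15.95, by 2.0 on the log2 scale (limma). This rise did not pass without the replicate 2 array of Ifnar1-/- IFNβ+zVAD or the replicate 1 array of Ifnar1-/- IFNβ+zVAD+Nec-1 (adjusted p = 0.12 and 0.13).

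Without any treatment, 4 of the 5 inducible genes were lower in Ifnar1-/- than in WT BMDMs. Psmb9 read 12.61 and 13.04 against 13.85 and 14.19, a difference of −1.19 ± 0.30 (limma adjusted p = 0.016), Psmb10 differed by −0.91 ± 0.25, Psmb8 by −0.89 ± 0.21 and Psme1 by −0.49 ± 0.14, in each case without overlap between the genotypes. Psme2/Psme2b differed by −0.56 ± 0.32 and did not pass (adjusted p = 0.35). In all, 5 members were lower (3.35% of all genes), the fifth being Psmg4 (−0.51), and 4 were higher (5.38% of all genes), namely Psmc3ip (1.23), Psmd14 (0.80), Psmb7 (0.78 ± 0.21) and Psmf1 (0.58). With arrays shifted to a common 75th percentile the split was 2 lower and 1 higher, where 939 of all genes were called, beside 1399 without the shift.

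The genotypes also sat on different slides, and markers of other cells differed between them, so slide, genotype and cell make-up cannot be told apart in this comparison. All 6 neutrophil markers were retained, and their summed level (log2 of the summed intensities) was 14.15 and 15.24 on the untreated WT and 15.92 and 15.91 on the untreated Ifnar1-/- arrays, with S100a9 higher in Ifnar1-/- cells (means 13.2 and 15.2) and Ly6g lower (9.03 and 3.94). Of 4 fibroblast markers 3 were retained, with sums of 9.14 and 10.19 in WT and 12.58 and 11.35 in Ifnar1-/- cells, while the defining marker Pdgfra was above background on 0 of 32 arrays. Macrophage markers summed to 19.97 and 19.92 in WT and to 19.78 and 19.84 in Ifnar1-/- cells. T cell markers (4 of 5 retained) summed to 13.32 and 13.40 against 13.19 and 12.33, B cell markers (4 of 4) to 9.87 and 10.31 against 10.33 and 10.48, and dendritic cell markers (3 of 4) to 16.37 and 16.11 against 16.03 and 15.27. Their part in the genotype difference was not tested. In a fit of these 4 arrays alone 1 member was called, a higher one, and none of the inducible genes passed (limma adjusted p = 0.053 for Psmb10, 0.067 for Psmb9, 0.097 for Psmb8 and 0.17 for Psme1). That fit called 894 of all 16035 genes. With the 75th-percentile shift Psmb8 (adjusted p = 0.061) and Psme1 (adjusted p = 0.12) did not pass either. The count of members called was 4 without the replicate 1 array of untreated WT and 1 without its replicate 2 array, and without the replicate 1 and replicate 2 arrays of untreated Ifnar1-/- cells it was 1 and 3.

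The genes that carry proteasome products onward were read beside the proteasome. Of 12 genes of MHC class I processing, 6 rose and 1 fell with IFNβ in WT cells, where 13.7% of all genes rose and 21.6% fell. With LPS 6 rose in WT cells (16.3% of all genes) and 5 in Ifnar1-/- cells (10.9%), and 0 were called with IFNβ in Ifnar1-/- cells (0%). Tap1, which shares its promoter segment with Psmb9, read 10.25 and 10.68 untreated, 14.18 and 13.99 with IFNβ and 13.87 and 13.04 with LPS in WT cells, changes of 3.62 ± 0.28 and 2.99 ± 0.28. Without Ifnar1, Tap1 rose with LPS by 0.96 ± 0.28, from 9.23 and 9.41 to 10.19 and 10.37, where Psmb9 changed by 0.37. With zVAD added to LPS Tap1 read 13.52 and 13.96 in WT, within the range of the LPS arrays or slightly above, while Psmb9 fell by 1.32. The same step in Ifnar1-/- cells lowered both, Tap1 by 1.40 ± 0.28 to 8.70 and 9.06 and Psmb9 by 1.31, and the genotype difference of Tap1 was −1.69 (limma adjusted p = 0.023). Nlrc5, a transactivator of MHC class I genes, changed by 3.60 with IFNβ and 3.16 with LPS in WT, and its genotype difference was −3.67 with IFNβ and −2.46 with LPS. Canx, an endoplasmic reticulum chaperone, was the gene that fell with IFNβ in WT, by 0.71.

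Of 7 genes of interferon signalling, 6 rose with IFNβ (13.7% of all genes) and 5 with LPS (16.3%) in WT cells, while 0 were called with IFNβ (0%) and 4 rose with LPS (10.9%) in Ifnar1-/- cells. Irf1, a transcription factor known to act on Psmb9 and Tap1, rose by 2.13 ± 0.34 with IFNβ and 0.96 ± 0.34 with LPS in WT, and by 1.78 ± 0.34 with LPS in Ifnar1-/- cells. Isg15 rose by 6.86 ± 0.79 with LPS in Ifnar1-/- cells and by 3.07 ± 0.79 in WT cells, in which it started higher (15.32 and 14.98 against 10.58 and 10.50).

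Of 21 proteasome partners 18 were retained. In WT cells 3 rose and 2 fell with LPS (16.3% and 24.9% of all genes), and 1 rose and 2 fell with IFNβ (13.7% and 21.6% of all genes). With LPS in Ifnar1-/- cells 4 rose and 2 fell (10.9% and 13.9% of all genes), and with IFNβ 0 were called. Nfe2l1, a transcription factor that drives proteasome genes when proteasome activity is low, rose with LPS by 1.29 ± 0.42 in WT and 1.48 ± 0.42 in Ifnar1-/- cells. Adrm1, a ubiquitin receptor of the 19S cap, rose by 0.74 and 0.93, Uba1, the ubiquitin-activating enzyme, by 1.05 and 0.72, and Uchl5, a deubiquitinase that binds Adrm1, fell by 0.60 and 0.66. With zVAD added to LPS in WT cells 2 partners rose and 5 fell (12.9% and 21.8% of all genes), among them Ngly1, which processes the Nfe2l1 protein, by 2.04.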

How the data were processed

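RNA of 32 BMDM samples was labelled with Cy3 and hybridised to 1-colour Agilent mouse arrays by the authors, whose background-subtracted intensity per spot, as deposited, is not normalized between arrays. The authors' processed table, also deposited, holds log2 values that matched the scanner intensities (slopes 0.984 to 1.01, column medians 7.61 to 7.80), and it served as an alternative. Probe annotation was on mm9. Submitters' notes name limma.

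The authors filtered dim probes before quantile normalization. Here, log2 intensities without outlier spots were averaged per probe and quantile-normalized over 55681 non-control probes. After this step, of 33140 probes with a symbol, the 21462 well above background on at least 50% of the arrays, the share that the authors used, were retained, and the brightest probe stood for each of 16035 genes. A model of 16 group means over all 32 arrays was fitted with limma 3.58.1 in R 4.3.3, with Benjamini-Hochberg adjustment over all genes and a threshold of 0.05, and was tested on simulated data. The simulated arrays varied independently, so that test does not cover the deviations shared by samples of a slide, given below. A gene was called where its adjusted p was under 0.05. Intervals are at 95%.

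The members and gene lists were chosen with earlier results of these data known. Full values are given for the inducible genes, their catalytic counterparts and Psme3, and in each comparison for the 3 other called members with the largest changes and the extremes of each structural group; the Psme2b-only probe was chosen after its values were seen. Within a genotype the replicate number marks the slide, and same-numbered samples deviated together: correlations of their deviations from the group means were 0.317 to 0.669 over the 28 pairs of WT groups and 0.167 to 0.583 over the 28 pairs of Ifnar1-/- groups, all 28 of each over 0.1. Alternatives were another normalization, another background correction, no filter, all probes averaged, the authors' table, the slide as a block, the compared arrays alone, and leaving out arrays. Promoters were taken from RefSeq (GRCm38.p6).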

Additional observations from a re-analysis of the deposited data

Results flagged for a closer look

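These members changed differently in the genotypes, by limma's test of the difference (change in Ifnar1-/- minus change in WT, log2 scale). With LPS the difference was −1.77 for Psme3 and 1.22 for Psmd5. With IFNβ it was −2.51 for Psmb9, −2.04 for Psmb10, −1.96 for Psmb8, −1.93 for Psme3, −1.52 for Psme1, −1.35 for Psme4, −1.18 for Psma5, −0.93 for Psma4, −0.93 for Psmf1 and −0.91 for Psma3, and 0.67 for Psmc6, 1.03 for Psmd5 and 1.32 for Psmd1. When zVAD was added to LPS it was 1.47 for Psmd5. Over all genes, 3.03% were called higher and 3.6% lower in Ifnar1-/- cells for LPS, and 10.3% and 8.54% for IFNβ. For zVAD added to LPS 3.6% were called in either direction. Psmd5, a chaperone of 19S assembly, is the member that differed in all 3 of these contrasts, which share arrays: in WT cells it fell with IFNβ (−0.99) and when zVAD was added to LPS (−2.16), and in Ifnar1-/- cells it rose with LPS. None of the 3 differences of Psmd5 passed with the 75th-percentile shift (limma adjusted p = 0.094 for LPS, 0.12 for IFNβ and 0.063 for zVAD added to LPS), in the authors' table (0.054, 0.11 and 0.068) or in fits of the compared arrays alone (0.081, 0.0501 and 0.21). The LPS and IFNβ differences also did not pass without the filter on dim probes (0.08 and 0.082), nor with 7 of 8 arrays left out in turn.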

How the results depend on the processing

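The rises of all 5 inducible genes with LPS and with IFNβ in WT cells, and the genotype differences of Psmb8, Psmb9, Psmb10 and Psme1 in the change with IFNβ, passed under every alternative run and with each array left out. Counts of called members that moved were as follows. In fits of the compared arrays alone 12 were called for LPS in WT, 4 for zVAD added to LPS in either genotype, 0 for Nec-1 added to LPS+zVAD in either, 0 for Nec-1 added to IFNβ+zVAD in Ifnar1-/-, 0 for both the LPS and the zVAD genotype differences and 1 for the untreated genotypes. Such fits have fewer samples. Over all 16035 genes they called 4438 for LPS in WT, and 1719 in WT and 2058 in Ifnar1-/- for zVAD added to LPS. For each of these Nec-1 steps they called 0 of all genes. The LPS and the zVAD genotype differences gave 859 and 3 of all genes, and the untreated genotypes 894. With a 75th-percentile shift 13 were called for Nec-1 in WT, 3 for zVAD added to LPS in Ifnar1-/-, 0 for the zVAD genotype difference and 3 for the untreated genotypes. Over all genes these were 4111, 962, 355 and 939. Without a filter the LPS genotype difference gave 0 and the untreated genotypes 5 (814 and 1117 over all genes). The authors' table gave 1 for the LPS and 0 for the zVAD genotype difference (769 and 320 over all genes), and normexp 0 for the latter (488 over all genes). Without both Ifnar1-/- LPS+zVAD+Nec-1 arrays 17 were called for zVAD added to LPS in Ifnar1-/-, 5 for the LPS and 3 for the zVAD genotype difference. In the same order, 1863, 1574 and 963 of all 16035 genes were called. The cause was not tested.

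With the slide as a replicate block, which pairs the replicate numbers within a genotype, 21 were called for zVAD added to LPS in Ifnar1-/-, 10 for Nec-1 in Ifnar1-/-, 7 for the LPS and 3 for the zVAD genotype difference. Calls over all 16035 genes also grew with the block. In the same order they were 3125, 5614, 2700 and 2144, beside 1323, 3014, 1064 and 578 without it. The block added 5 calls among the named results (Psmb7 with LPS in Ifnar1-/-, 0.41, adjusted p = 0.013, beside those given above) and changed no other of them. The untreated genotypes could not be fitted with it.

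Reversed were Psmb1 with LPS in WT under the 75th-percentile shift (0.16), and Psme2b (given above as Psme2/Psme2b) with all probes averaged, in the Ifnar1-/- LPS change (−0.067, adjusted p = 0.86) and the LPS genotype difference (−1.41).

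Leaving out each array gave 17 to 24 calls for LPS and 15 to 17 for IFNβ in WT, 19 to 27 for zVAD added to LPS and 12 to 19 for Nec-1 in WT, 12 to 16 for LPS in Ifnar1-/-, 1 to 6 for zVAD and 2 to 15 for Nec-1 added there, 0 to 1 for Nec-1 added to IFNβ+zVAD in Ifnar1-/-, 0 to 3, 8 to 11 and 0 to 2 for the LPS, IFNβ and zVAD genotype differences, and 1 to 4 for the untreated genotypes. The other comparisons gave 0 throughout. A lone remaining array was assumed to vary like the other groups. The brightest probe of each inducible gene was above background on every array.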
